A study of Mus musculus with 12 samples.

Results

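Transcripts of 10 genes that build, load or switch on autophagy and mitophagy were followed in mouse left ventricle: Sqstm1, Map1lc3a, Map1lc3b, Gabarapl1, Ulk1, Becn1, Pink1, Bnip3, Fundc1 and Tfeb. They were taken by name, as the rows of the count table that carry these symbols. That rule uses no measured value, but the 10 names were chosen with earlier results of these data known. All 10 were among the 29564 rows, and all 10 were among the 14333 genes kept for testing. Libraries from 4 mice per group were compared, and every mouse was of strain C57BL6 and wild-type. Control-Veh mice were non-failing and received vehicle. HFpEF-Veh mice were fed HFD and given L-NAME, which blocks nitric oxide synthesis, to model heart failure in which ejection is preserved (HFpEF), and received vehicle. HFpEF-TYA-018 mice carried the same model and received oral TYA-018 at 15 mg/kg, a compound that inhibits HDAC6. The series title and the study's account of its RNA-seq speak of one dose, with hearts taken hours later in the latter, while the treatment text in the labels speaks of daily doses over weeks, and the title was followed. No control mice received TYA-018, so the compound was compared only within the model. Libraries carry the letter C, V or T for these groups and a number for the mouse.

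Autophagy is the route by which a cell wraps part of its own content in a double membrane, the autophagosome, and delivers it to the lysosome for digestion. The ULK1 kinase and the BECN1 lipid kinase complex start the membrane, small proteins of the ATG8 family (LC3 and GABARAP proteins) are attached to it by a chain of conjugating enzymes, and receptors such as SQSTM1 (p62) tie cargo to those ATG8 proteins. Mitophagy is the same route applied to mitochondria, either through the kinase PINK1 and tagging with ubiquitin or through receptors that sit on the mitochondrion, such as BNIP3 and FUNDC1. TFEB is a transcription factor of lysosome and autophagy genes. The heart muscle cell divides rarely and is rich in mitochondria, and it renews them through these routes. HDAC6, the target of TYA-018, is known as a carrier of ubiquitin-tagged protein aggregates to autophagy. A transcript level is not a measure of autophagic flux, and no protein was measured in these files.

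The genes lie on 9 chromosomes in the GRCm38 genome. By the GENCODE M21 annotation Sqstm1 spans chr11:50199366-50210827, Pink1 chr4:138313409-138326307 and Bnip3 chr7:138890836-138909519, all on the minus strand and all protein-coding. These are 3 of the 4 genes called between Control-Veh and HFpEF-Veh (the fourth, Becn1, had no window), and the 250 bases before their start sites are shown so that the shared and the private letters can be compared. The sequences are from RefSeq (GRCm38.p6), 5′ to 3′ on the strand of the gene, at chr11:50210821-50211070 for Sqstm1, chr4:138326297-138326546 for Pink1 and chr7:138909507-138909756 for Bnip3. Capitals mark the GC box GGGCGG or its reverse complement and, in Bnip3, the E-box CACGTG.
Sqstm1: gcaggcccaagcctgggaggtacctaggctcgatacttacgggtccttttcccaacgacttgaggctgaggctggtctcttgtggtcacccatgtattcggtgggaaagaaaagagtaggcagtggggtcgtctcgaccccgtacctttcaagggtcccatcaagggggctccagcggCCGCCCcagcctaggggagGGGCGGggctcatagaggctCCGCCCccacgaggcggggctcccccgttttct
Pink1: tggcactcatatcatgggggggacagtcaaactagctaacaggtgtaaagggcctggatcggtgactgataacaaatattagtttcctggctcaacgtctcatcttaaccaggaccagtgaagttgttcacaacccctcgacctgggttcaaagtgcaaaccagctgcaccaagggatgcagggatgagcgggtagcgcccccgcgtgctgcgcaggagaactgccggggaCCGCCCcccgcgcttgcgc
Bnip3: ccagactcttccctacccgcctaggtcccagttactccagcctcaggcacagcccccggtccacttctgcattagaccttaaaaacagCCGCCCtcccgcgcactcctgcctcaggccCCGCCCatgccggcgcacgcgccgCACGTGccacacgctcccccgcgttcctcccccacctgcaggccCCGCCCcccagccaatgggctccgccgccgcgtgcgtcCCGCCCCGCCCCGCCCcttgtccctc
The RefSeq table matched 8 of the 10 genes, with 10 windows, and had no entry for Map1lc3a and Becn1. Both strands were searched for 5 motifs. A gene was counted if any of its windows held the motif, while the percentages are shares of single windows. GGGCGG was found in 7 of the 8 genes, against 32.7% of 32851 promoter windows of the same length. CACGTG, the letters that TFEB and related factors prefer, occurred in Bnip3 only, once, against 6.02% of windows. ACGTG, the core letters of the hypoxia response element, occurred 2 times in Bnip3, both within that CACGTG because its letters read the same on either strand, against 16.6% of windows. TGACNNNGC, the core of the antioxidant response element, and the forkhead letters GTAAACA were found in 0 of the 8 genes, against 10.2% and 3.17% of windows. A match is a description of letters and not a measured binding site.

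Levels can be compared between genes only per length, and TPM (transcript abundance scaled for effective length and for library size) was used for that. In Control-Veh the TPM were 190.3 ± 8.94 for Sqstm1, 142 ± 12.1 for Pink1, 128 ± 9.03 for Map1lc3a and 86.9 ± 6.48 for Map1lc3b (SD, n = 4). Bnip3 followed at 26.0 ± 1.52 TPM, Gabarapl1 at 10.8 ± 1.09 TPM and Becn1 at 7.85 ± 2.42 TPM. Tfeb at 4.05 ± 0.45 TPM, Ulk1 at 3.33 ± 0.17 TPM and Fundc1 at 2.51 ± 0.86 TPM were the lowest. The 4 libraries of neighbours in this order overlapped for Pink1 and Map1lc3a, for Gabarapl1 and Becn1 and for Ulk1 and Fundc1, and the other 6 neighbouring pairs did not overlap. The cargo receptor Sqstm1 therefore led the list in TPM, and the initiating kinase Ulk1 was near its foot. Estimated counts behind these levels ran from 502 for Fundc1 in its lowest library to 58617 for Pink1 in its highest.

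From here values of one gene across groups are CPM, counts divided by library size after scaling by TMM, a trimmed mean of log ratios between libraries. A gene was called when the Benjamini-Hochberg adjusted p of edgeR's quasi-likelihood F test was under 0.05 over the 14333 genes. In a bulk sample fewer cells of a type and less RNA per cell cannot be told apart, and this holds for each of the genes here. Between HFpEF-Veh and Control-Veh, 4 of the 10 genes were called, 2 higher (Bnip3 and Becn1) and 2 lower (Sqstm1 and Pink1), where 21.2% of all tested genes were called, 10.9% higher and 10.3% lower. Between HFpEF-TYA-018 and HFpEF-Veh, 5 of the 10 were called higher (Sqstm1, Map1lc3a, Pink1, Tfeb and Gabarapl1), where 19.3% of all tested genes were called and 8.93% were higher. In that comparison 0 of the 10 were called lower by edgeR (10.4% of all tested genes were), with 1 lower at an unadjusted p under 0.05 and 1 (Bnip3) called lower by DESeq2, which called 23.8% of all tested genes. Between HFpEF-TYA-018 and Control-Veh, 1 of the 10 was called (Map1lc3a, higher), where 5.86% of all tested genes were called, 3.12% higher and 2.74% lower. The first 2 comparisons share the HFpEF-Veh libraries, so opposite directions of one gene in them are not independent. The median log2 fold change of the 10 genes was -0.079 in the first comparison, 0.20 in the second and 0.15 in the third, beside -0.011, 0.0021 and -0.018 over all genes tested.

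**Figure D1:**
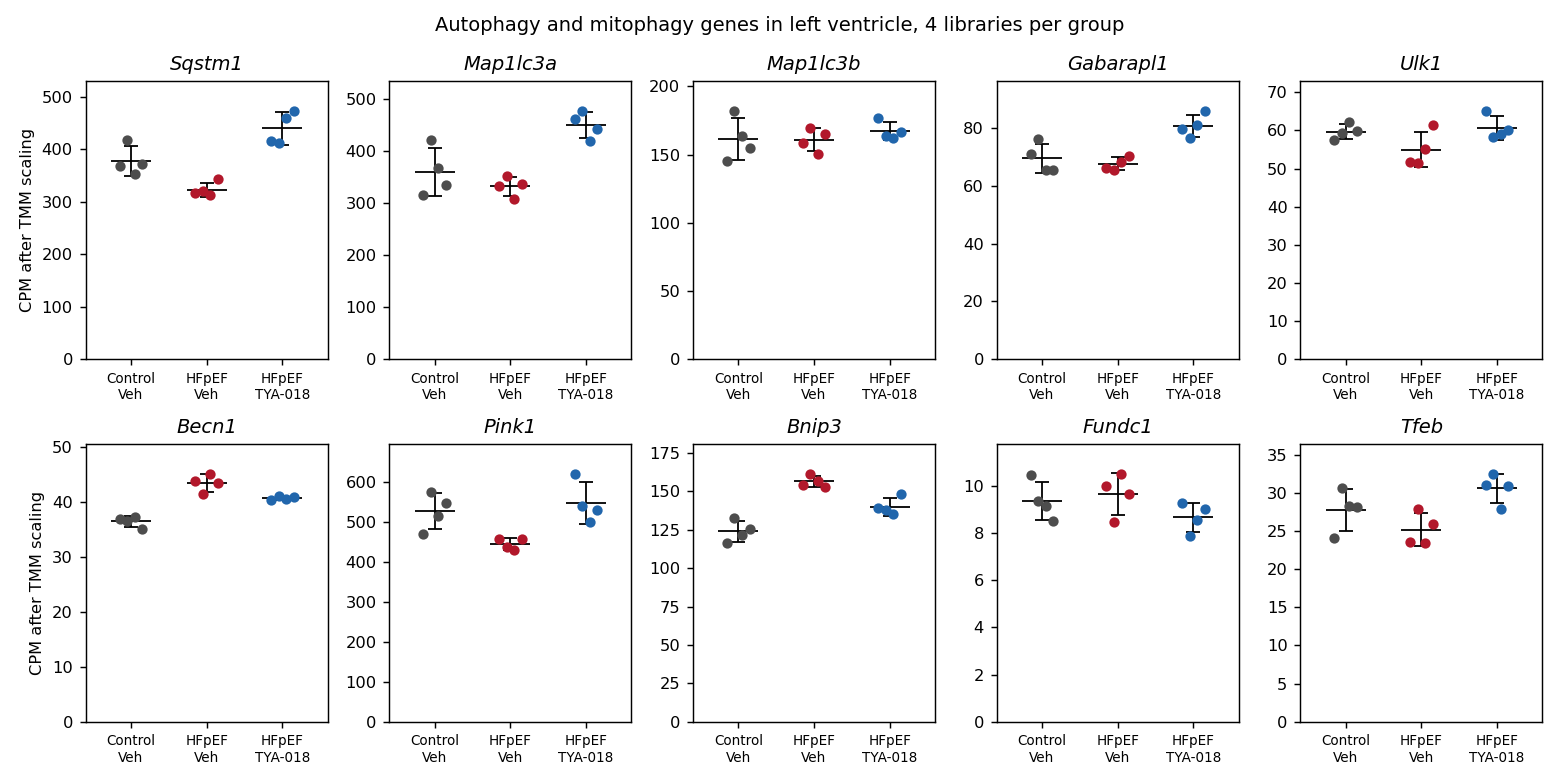
CPM after TMM scaling (vertical axes, starting at 0) of the 10 genes in each of the 12 libraries, by group; each point is 1 mouse, and the bar and whiskers are the mean and SD of 4. Sqstm1 and Pink1 are lowest in the 4 HFpEF-Veh libraries, Bnip3 and Becn1 are highest there, and Map1lc3a and Gabarapl1 stand above the HFpEF-Veh libraries in all 4 HFpEF-TYA-018 libraries.

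Sqstm1, the cargo receptor, was lower in the model and higher with TYA-018. Its CPM were 368, 418, 352 and 372 in C1 to C4, then 316, 319.7, 313 and 343 in V1 to V4, and 415, 412, 460.2 and 473 in T1 to T4. All 4 HFpEF-Veh libraries lay below every Control-Veh and every HFpEF-TYA-018 library. Among the 10 genes, 4 had HFpEF-Veh and Control-Veh libraries that did not overlap in CPM (23.5% of all tested genes did not), and 7 had HFpEF-TYA-018 and HFpEF-Veh libraries that did not overlap (25.1% of all tested genes). The Sqstm1 mean fell from 378 ± 28.4 to 323 ± 13.7 CPM in HFpEF-Veh, which is -0.23 ± 0.071 on the log2 scale (SE derived from the F statistic, edgeR adjusted p = 0.0411). With TYA-018 it rose to 440.1 ± 31.3 CPM, which is 0.45 ± 0.071 in log2 fold change against HFpEF-Veh (edgeR adjusted p = 0.00246), and only 1.58% of tested genes had a smaller p. Against Control-Veh the difference was 0.22 on the log2 scale (95% interval 0.059 to 0.38, edgeR adjusted p = 0.0922), with 2 of 4 treated libraries above every control library. The fall in HFpEF-Veh lost its call in 6 of the 12 fits that left out 1 library, with adjusted p from 0.0378 to 0.111 over the 12. Those 6 libraries were C2, C4, V1, V2, V3 and T3. The call was also lost in 3 of 10 other alternatives. These were no filter on low counts (edgeR adjusted p = 0.0733), only the 2 groups compared (edgeR adjusted p = 0.0577) and log2(TPM + 1) without the filter (limma adjusted p = 0.0663).

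Of the 3 ATG8 genes, whose proteins coat the growing membrane, Map1lc3a and Gabarapl1 were called with TYA-018 and Map1lc3b was not. Map1lc3a, which encodes LC3A, had CPM of 316, 421, 367 and 335 in C1 to C4, of 332, 352, 307 and 336 in V1 to V4, and of 462, 477, 419 and 443 in T1 to T4. The HFpEF-Veh libraries fell within or just below the control range, and the treated libraries were all above HFpEF-Veh, with only C2 as high as the lowest of them. Map1lc3a rose from 332 ± 18.8 to 450.1 ± 24.9 CPM with TYA-018, which is 0.44 ± 0.087 in log2 fold change (edgeR adjusted p = 0.00611). It was also above Control-Veh, by 0.32 on the log2 scale (edgeR adjusted p = 0.0497), and that call was lost in 11 of the 12 fits without 1 library (adjusted p 0.0160 to 0.135), the exception being the fit without C2. Between HFpEF-Veh and Control-Veh the log2 difference of Map1lc3a was -0.12 (95% interval -0.32 to 0.080, edgeR adjusted p = 0.360).

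Gabarapl1, whose protein belongs to the GABARAP branch of the family, had CPM of 70.9, 76.1, 65.4 and 65.5 in the Control-Veh libraries. It had 66.2, 65.4, 68.3 and 70.4 CPM in HFpEF-Veh and 79.5, 76.6, 80.9 and 85.9 CPM in HFpEF-TYA-018. The treated libraries were above all 8 others, and both vehicle groups overlapped. The rise over HFpEF-Veh was 0.26 ± 0.061 on the log2 scale (edgeR adjusted p = 0.0141), and that over Control-Veh was 0.22 (edgeR adjusted p = 0.0585). Map1lc3b, which encodes the widely used autophagosome marker LC3B, ranged from 146 to 182 CPM among controls, from 151 to 169 CPM among HFpEF-Veh libraries and from 162 to 177 CPM among treated ones. These ranges overlapped throughout, and the log2 difference of Map1lc3b with TYA-018 was 0.055 (95% interval -0.11 to 0.22, edgeR adjusted p = 0.635). Of the 31-base windows in its GENCODE transcripts, 7.77% also occur in other genes, so part of its reads may be divided.

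The initiation genes gave one called change. Becn1, the scaffold of the lipid kinase complex, had CPM of 36.9, 36.5, 37.4 and 35.2 in C1 to C4, of 43.9, 41.4, 45.2 and 43.4 in V1 to V4, and of 40.4, 41.1, 40.6 and 41.0 in T1 to T4. The 3 groups did not overlap, with HFpEF-Veh highest, HFpEF-TYA-018 between and Control-Veh lowest. Becn1 rose in HFpEF-Veh by 0.25 ± 0.043 on the log2 scale (edgeR adjusted p = 0.00243), a call that was kept in all 12 fits without 1 library. Against HFpEF-Veh its log2 difference with TYA-018 was -0.093 (95% interval -0.19 to 0.0053, edgeR adjusted p = 0.156), and against Control-Veh it was 0.16 (edgeR adjusted p = 0.0508). Between HFpEF-TYA-018 and Control-Veh, 3 of the 10 genes (Becn1, Gabarapl1 and Bnip3) had treated libraries above every control library, where 14.8% of all tested genes did not overlap, 7.76% higher and 7.05% lower. Ulk1, the initiating kinase, ranged from 57.4 to 62.3 CPM among controls, from 51.4 to 61.4 CPM among HFpEF-Veh libraries and from 58.3 to 65.2 CPM in HFpEF-TYA-018. Only V4 among the HFpEF-Veh libraries reached the control range, and the log2 differences of Ulk1 were -0.12 in the model (edgeR adjusted p = 0.201) and 0.14 with TYA-018 (edgeR adjusted p = 0.139).

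**Figure D2:**
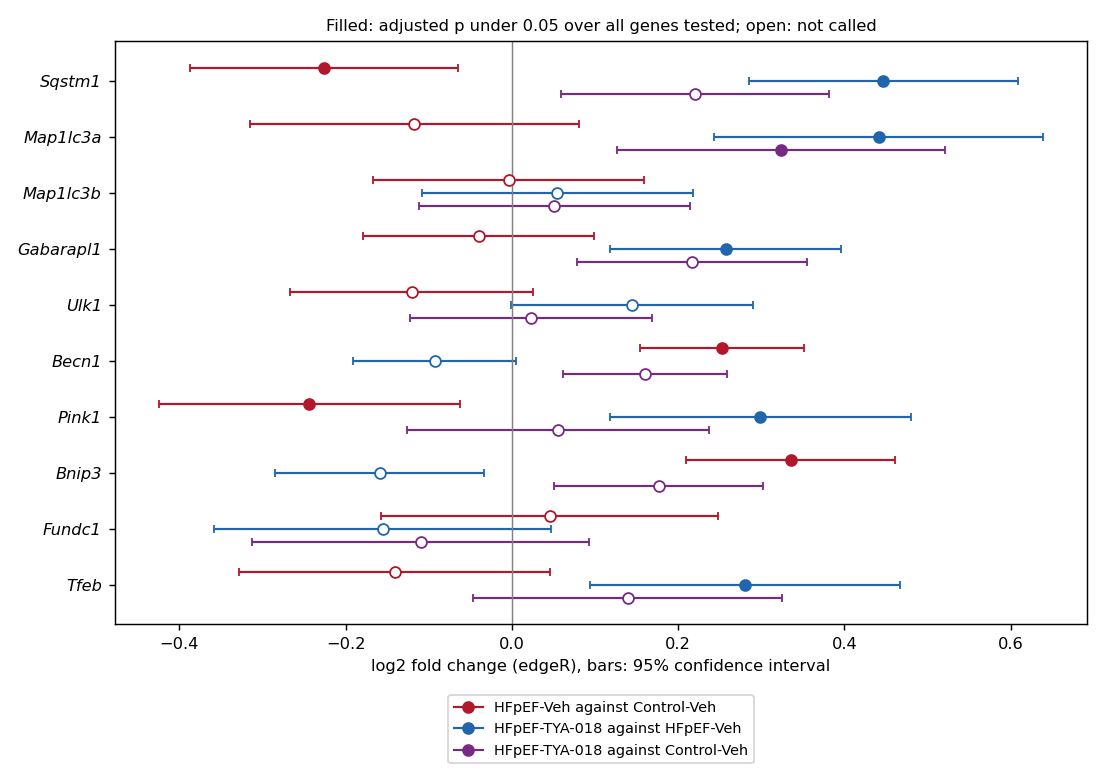
Log2 fold changes of the 10 genes (horizontal axis) in the 3 comparisons, with 95% confidence intervals from standard errors derived from the edgeR F statistic. Filled points had an adjusted p under 0.05 over all genes tested. In HFpEF-Veh against Control-Veh Bnip3 and Becn1 lie above 0 and Sqstm1 and Pink1 below, and in HFpEF-TYA-018 against HFpEF-Veh the 5 filled points lie between 0.26 and 0.45.

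Of the 3 mitophagy genes, Pink1 was lower and Bnip3 higher in HFpEF-Veh, and Fundc1 was not called. Pink1, the kinase that marks damaged mitochondria for removal, had CPM of 472, 576, 515 and 549 in C1 to C4, of 458, 438, 429.7 and 457 in V1 to V4, and of 623, 540.4, 500.3 and 531 in T1 to T4. The HFpEF-Veh libraries were below all 8 others, although V1 lay close to C1. Pink1 fell in HFpEF-Veh from 528 ± 45.2 to 446 ± 14.3 CPM, which is -0.24 ± 0.080 in log2 fold change (edgeR adjusted p = 0.0484). It rose with TYA-018 to 549 ± 52.2 CPM, which is 0.30 ± 0.080 in log2 fold change (edgeR adjusted p = 0.0233). Both calls were near the threshold. The first was lost in 10 of the 12 fits without 1 library (adjusted p 0.0152 to 0.126), all but those without C1 or T1, and the second in 4 of the 12 (adjusted p 0.0124 to 0.0694), those without V2, V3, T1 or T2. Against Control-Veh the treated libraries differed by 0.055 on the log2 scale (95% interval -0.13 to 0.24, edgeR adjusted p = 0.740).

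Bnip3, a receptor on the outer mitochondrial membrane whose gene is known to respond to low oxygen, had CPM of 116, 133, 122 and 125 in the controls, against 154, 162, 157 and 153 in the vehicle-treated model and 139, 138, 135 and 149 with TYA-018. The groups did not overlap, with HFpEF-Veh highest and Control-Veh lowest. Bnip3 rose in HFpEF-Veh by 0.34 ± 0.056 on the log2 scale (edgeR adjusted p = 0.00205), in all 12 fits without 1 library. The call was lost on log2(TPM + 1) and log2(TPM + 0.1), at 0.11 on both scales (limma adjusted p = 0.738 and 0.723), and on the former 1.2% of all tested genes were called. The median of all tested genes was -0.069 and -0.17 on these scales. With TYA-018 its log2 difference against HFpEF-Veh was -0.16 (95% interval -0.28 to -0.033), which missed the threshold (edgeR adjusted p = 0.0643). That difference was called lower by DESeq2 (adjusted p = 0.0160) and in the 3 fits without C1, C2 or T4. Of the 31-base windows of Bnip3 transcripts, 20.3% are shared with 4 other genes (Gm16439, Gm6532, Gm9419 and Gm14506), so part of its reads may be divided. How far its counts depend on this was not tested. Fundc1, another receptor on the mitochondrion, had the lowest mean TPM of the list in each group, with 8.51 to 10.5 CPM among controls, 8.46 to 10.5 CPM among HFpEF-Veh libraries and 7.87 to 9.28 CPM in HFpEF-TYA-018. The Fundc1 ranges overlapped, and its log2 differences were 0.045 in the model (edgeR adjusted p = 0.756) and -0.16 with TYA-018 (95% interval -0.36 to 0.047, edgeR adjusted p = 0.249).

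Tfeb, the transcription factor, had CPM of 24.1, 30.6, 28.3 and 28.1 in C1 to C4, of 23.5, 27.9, 23.4 and 25.9 in V1 to V4, and of 32.5, 27.9 and 30.9 in T2 to T4, with T1 just above T4. The treated libraries were above HFpEF-Veh, the lowest of them (T3) barely above V2, and C1 stood below the other controls. Tfeb rose with TYA-018 by 0.28 ± 0.082 on the log2 scale (edgeR adjusted p = 0.0338), a call lost in 6 of the 12 fits without 1 library (V1, V3, V4, T1, T2 or T4; adjusted p 0.0156 to 0.0951). In HFpEF-Veh against Control-Veh its log2 difference was -0.14 (95% interval -0.33 to 0.046, edgeR adjusted p = 0.244).

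Several of these calls depended on how gene length was handled. The deposited tables hold an effective length of each gene in each library, and using it as an offset in edgeR, or testing the study's kind of rescaled TPM with limma, turns a count into an amount per length. Fewer genes of the whole table were called that way, 10.1% in HFpEF-Veh against Control-Veh and 8.49% with TYA-018 on the offset, and 7.93% and 5.56% on rescaled TPM. On the length offset, Sqstm1 kept both calls and its log2 fold changes were larger, -0.38 in HFpEF-Veh (edgeR adjusted p = 0.0168) and 0.61 with TYA-018 (edgeR adjusted p = 0.00453). The effective length of Sqstm1 itself ran from 745 to 899.9 bases in the HFpEF-Veh libraries, above the 639 to 722 bases in Control-Veh and the 641 to 685 bases in HFpEF-TYA-018. Bnip3 also kept its call in HFpEF-Veh, at 0.33 (edgeR adjusted p = 0.0186). Becn1 lost it, at 0.45 on the length offset (edgeR adjusted p = 0.147), and so did Pink1, at -0.15 (edgeR adjusted p = 0.323). Apart from the fits without 1 library, the rise of Becn1 lost its call in 5 of 10 alternatives. Among them were log2(TPM + 1) (0.22, limma adjusted p = 0.589) and rescaled TPM (0.51, limma adjusted p = 0.192). In HFpEF-TYA-018 against HFpEF-Veh the other 4 genes also lost their calls on the offset, with log2 fold changes of 0.23 for Map1lc3a (edgeR adjusted p = 0.117), 0.10 for Gabarapl1 (edgeR adjusted p = 0.485), 0.067 for Pink1 (edgeR adjusted p = 0.697) and 0.15 for Tfeb (edgeR adjusted p = 0.644).

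On the rescaled TPM Sqstm1 and Bnip3 were the 2 genes called in HFpEF-Veh, at -0.34 (limma adjusted p = 0.0424) and 0.38 (limma adjusted p = 0.00827). Sqstm1 was the only one called with TYA-018, at 0.60 (limma adjusted p = 0.00951). The largest effective length of a gene over the 12 libraries exceeded the smallest 1.98 times for Tfeb, 1.89 times for Becn1 and 1.77 times for Fundc1, but 1.122 times for Pink1 and 1.11 times for Gabarapl1, with a median of 1.43 times over all tested genes. The median effective length over tested genes, relative to the mean of the libraries, was 0.078 ± 0.030 on the log2 scale for HFpEF-Veh (SD, n = 4), -0.0087 ± 0.034 for Control-Veh and -0.066 ± 0.069 for the treated libraries.

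**Figure D3:**
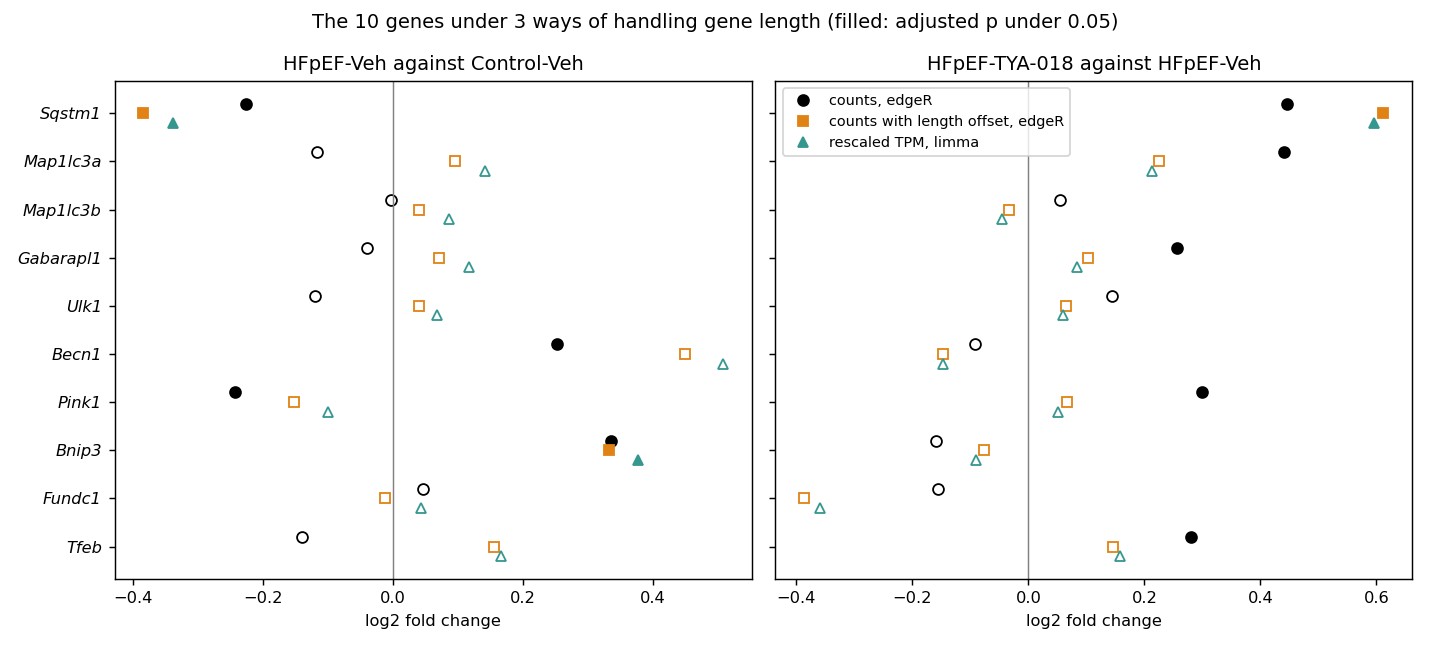
Log2 fold changes (horizontal axes) of the 10 genes from counts (edgeR), counts with the effective length as an offset (edgeR) and rescaled TPM (limma), in HFpEF-Veh against Control-Veh and HFpEF-TYA-018 against HFpEF-Veh; filled symbols had an adjusted p under 0.05. Sqstm1 is filled under all 3 in both comparisons and Bnip3 in the first, while Map1lc3a, Gabarapl1, Pink1 and Tfeb are filled with TYA-018 on counts alone.

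**Figure D4:**
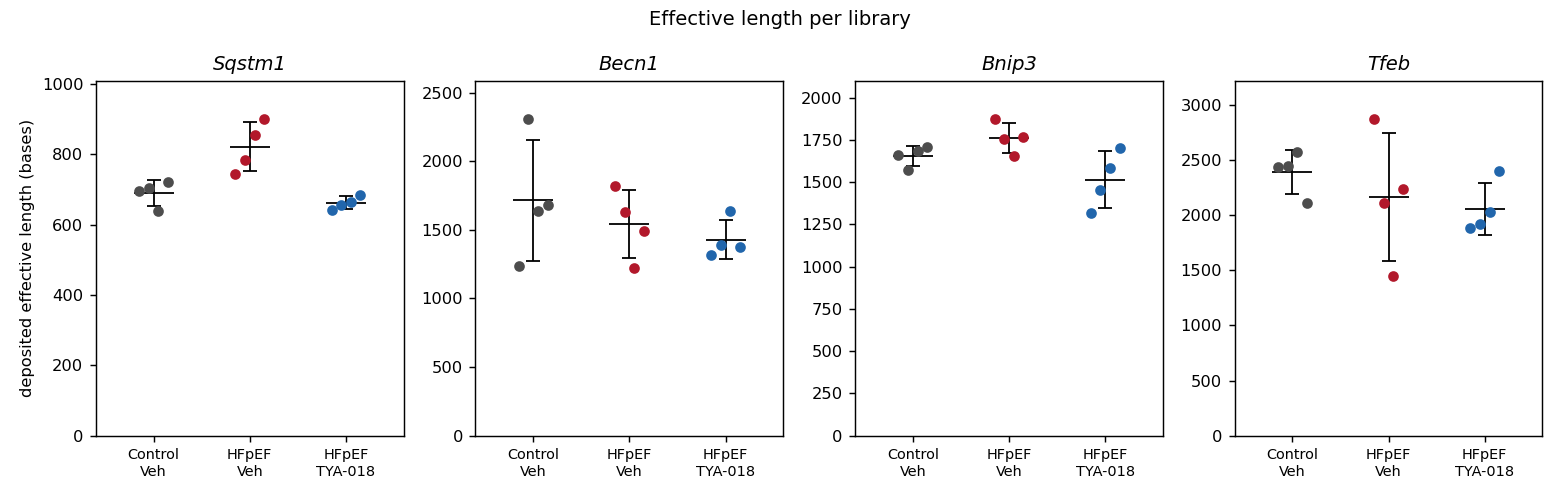
Deposited effective length in bases (vertical axes, starting at 0) of Sqstm1, Becn1, Bnip3 and Tfeb in each library, with the mean and SD of 4. Sqstm1 is longest in the 4 HFpEF-Veh libraries, from 745 to 899.9 bases, and Becn1 and Tfeb vary widely within groups.

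The rest of the pathway was described with 91 other genes in 11 classes, of which 90 were tested and Tsc2 was listed at 0. In HFpEF-Veh against Control-Veh 24 of the 90 were called (26.7%, where 21.2% of all genes were), 13 higher and 11 lower. In HFpEF-TYA-018 against HFpEF-Veh 22 were called (24.4%, where 19.3% of all genes were), 18 higher and 4 lower. In HFpEF-TYA-018 against Control-Veh 11 were called (12.2%, where 5.86% of all genes were), 9 higher and 2 lower. Of all tested genes 10.9%, 8.93% and 3.12% were called higher and 10.3%, 10.4% and 2.74% lower. The class counts below stand beside these shares. The median log2 fold change of the 90 was 0.043, 0.048 and 0.059 in these comparisons. With the length offset the counts fell to 10, 6 and 2 genes of the 90, where 10.1%, 8.49% and 1.42% of all genes were called.

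**Figure D5:**
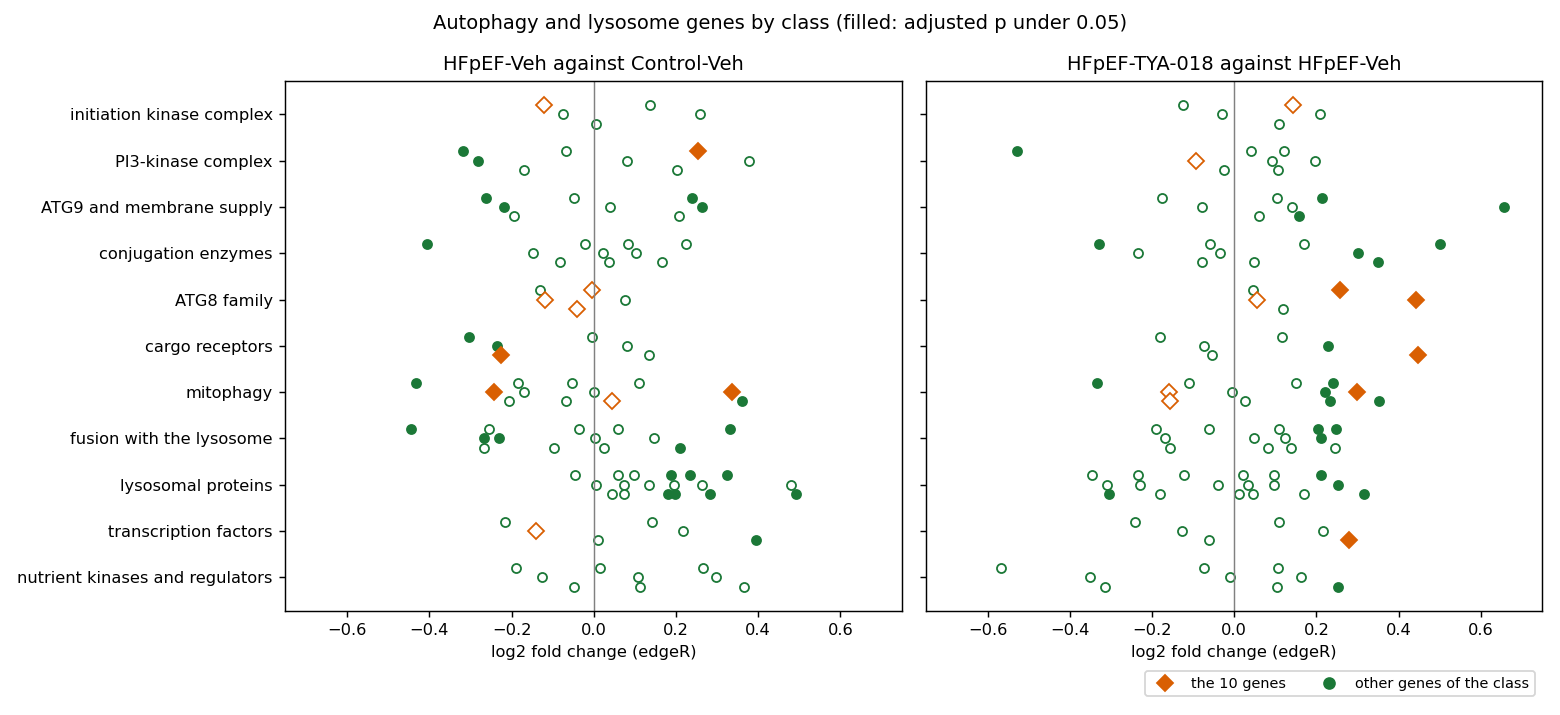
Log2 fold changes (horizontal axes) of the tested genes by class in HFpEF-Veh against Control-Veh and HFpEF-TYA-018 against HFpEF-Veh; diamonds are the 10 genes, circles the other genes, and filled symbols had an adjusted p under 0.05. In the first comparison the filled circles of the lysosomal proteins all lie above 0, and in the second most filled circles of the conjugation enzymes and the mitophagy class do.

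Among initiation genes beyond Ulk1 and Becn1, 0 of the 4 other subunits of the kinase complex were called by edgeR in the first 2 comparisons, with 2 and 0 at an unadjusted p under 0.05 and 1 and 0 called by DESeq2. Atg13 was called higher in HFpEF-TYA-018 against Control-Veh, at 0.37. Of 7 genes of the lipid kinase complex, 2 fell in HFpEF-Veh, Ambra1, an activator of BECN1, by 0.28 on the log2 scale (edgeR adjusted p = 0.00511), and 1700021K19Rik, an older name of the inhibitor Rubcn, by 0.32 (edgeR adjusted p = 0.0101). In HFpEF-TYA-018 against HFpEF-Veh 1 of the 7, Uvrag, was lower. Of 8 genes that supply membrane, Atg2a, a lipid transfer protein, and Wipi2 fell in HFpEF-Veh by 0.26 and 0.22 on the log2 scale, and Vmp1 (0.24) and Wipi1 (0.26) rose. With TYA-018 Wdr45 (0.66 ± 0.15, edgeR adjusted p = 0.0112), Atg2a (0.16) and Atg9a (0.21) rose, 3 of the 8, and 0 fell, with 0 lower at an unadjusted p under 0.05 and 0 by DESeq2. Of the genes named in this paragraph Uvrag and, in HFpEF-Veh, Wipi1 kept their calls on the length offset, and the rest lost them. Atg2a was then at -0.041 in HFpEF-Veh (edgeR adjusted p = 0.858) and 0.018 with TYA-018 (edgeR adjusted p = 0.941), and Atg9a at 0.0064, with the opposite sign on rescaled TPM (-0.014). Among the 12 fits without 1 library, Wipi2 lost its call in 5, Atg2a and Atg9a theirs with TYA-018 in 6 each, and Atg13 in 7.

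The conjugation enzymes attach ATG8 proteins to lipid. Of 10 tested, 1 (Atg10) was called lower in HFpEF-Veh and 4 were called with TYA-018. The fall of Atg10, at -0.40 (edgeR adjusted p = 0.0459), lost its call in 9 of the 12 fits without 1 library, all but those without C1, C4 or V4 (adjusted p 0.0138 to 0.129), and in 6 of 10 other alternatives. Atg7, which activates ATG8 proteins as the E1-like enzyme, rose from 8.89 ± 0.39 to 11.3 ± 0.88 CPM (log2 0.35 ± 0.080, edgeR adjusted p = 0.0112). Atg10 (0.50) and Atg16l1 (0.30) rose as well, and Atg4a, a protease that processes ATG8 proteins, fell by 0.33 on the log2 scale (edgeR adjusted p = 0.0285), a call lost in 5 of the 12 fits without 1 library. With the offset Atg10 and Atg4a kept their calls with TYA-018, while Atg7 (0.74, edgeR adjusted p = 0.216) and Atg16l1 (0.28, edgeR adjusted p = 0.111) did not. Of the other 2 ATG8 genes tested, 0 were called by edgeR or DESeq2 in any comparison, with 0, 0 and 1 at an unadjusted p under 0.05. Of 5 other cargo receptors, Optn and Calcoco1 fell in HFpEF-Veh, at -0.30 (edgeR adjusted p = 0.0114) and -0.24 (edgeR adjusted p = 0.0212). Calcoco1 had the opposite sign on the length offset (0.054) and on rescaled TPM (0.10). Optn alone was called with TYA-018, higher by 0.23 on the log2 scale, which was lost on the offset and in 7 of the 12 fits without 1 library, while its fall in HFpEF-Veh was kept in both.

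Of 9 other mitophagy genes, 2 were called in HFpEF-Veh against Control-Veh, 1 higher and 1 lower, 5 with TYA-018, 4 higher and 1 lower, and 1 in HFpEF-TYA-018 against Control-Veh, lower. Of all tested genes 21.2%, 19.3% and 5.86% were called in these comparisons. Bnip3l, the close relative of Bnip3 (also called Nix), was also highest in HFpEF-Veh. The 3 group means of Bnip3l, in the order control, model and treated, were 40.7 ± 2.34, 52.2 ± 5.65 and 41.4 ± 2.38 CPM. It rose by 0.36 ± 0.078 on the log2 scale in the model (edgeR adjusted p = 0.00788) and fell by 0.33 with TYA-018 (edgeR adjusted p = 0.0127). Pgam5, a mitochondrial phosphatase (0.35, edgeR adjusted p = 0.00605), the ubiquitin ligase Mul1 (0.22, edgeR adjusted p = 0.00853), Fkbp8 (0.24) and Phb2 (0.23) rose with TYA-018. On the offset Bnip3l kept its rise (0.62, edgeR adjusted p = 0.0316) and was at -0.52 with TYA-018 (edgeR adjusted p = 0.0625), and the other 4 calls were lost, with Pgam5 at 0.074 and Fkbp8 at 0.061. Fkbp8 and Phb2 each lost theirs in 5 of the 12 fits without 1 library.

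The last steps are fusion and digestion. Of 13 fusion genes, Rab7, the GTPase of late endosomes, rose in HFpEF-Veh by 0.33 ± 0.062 on the log2 scale (edgeR adjusted p = 0.00398) with Snap29, and Vps16 (-0.44, edgeR adjusted p = 0.00374), Vps11 and Vps39, subunits of the tethering complexes, were lower. Rab7 had the opposite sign on log2(TPM + 1), at -0.075, where the median of all tested genes was -0.069. Vps11 (0.25), Vps18 (0.21) and Vps41 (0.20) rose with TYA-018, and 0 of the 13 were called lower by edgeR, with 3 lower at an unadjusted p under 0.05 and 1 called lower by DESeq2. Of 18 lysosomal proteins, 7 rose in HFpEF-Veh and 0 fell (0 lower also at an unadjusted p under 0.05 and by DESeq2), among them Atp6v1a (0.49 ± 0.087, edgeR adjusted p = 0.00274) and Atp6v1h, both of the proton pump, Atp6ap1, Lamp1, Ctsb and Psap. In HFpEF-TYA-018 against HFpEF-Veh 3 of the 18 were higher and 1 lower. Ctsd, a lysosomal protease, rose from 641 ± 29.3 to 797 ± 26.6 CPM (log2 0.32 ± 0.058, edgeR adjusted p = 0.00434). Psap was also higher, by 0.25 on the log2 scale (edgeR adjusted p = 0.00935). Atp6v1a was lower by 0.30 on the log2 scale (edgeR adjusted p = 0.0291). It had the opposite sign on log2(TPM + 1), at 0.069, where the median of all tested genes was 0.17. In HFpEF-TYA-018 against Control-Veh 6 of the 18 were higher and 0 lower (0 lower also at an unadjusted p under 0.05 and by DESeq2). Of these 6, Ctsd (0.54, edgeR adjusted p = 0.00848) and Psap (0.57, edgeR adjusted p = 0.0173) kept their calls on the length offset, and the rest lost theirs. Of the genes named for these steps, Vps16, Atp6v1a and Psap kept their calls in HFpEF-Veh on the length offset. Ctsd kept its call with TYA-018 against HFpEF-Veh. Their other calls in HFpEF-Veh or with TYA-018 against HFpEF-Veh were lost, with Rab7 at 0.14 (edgeR adjusted p = 0.284) and Snap29 at 0.023 (edgeR adjusted p = 0.898) in HFpEF-Veh. Among the 12 fits without 1 library the calls in HFpEF-Veh were lost in 10 for Vps39, 8 for Lamp1, 7 for Psap, 5 for Snap29 and Atp6v1h, and 4 for Vps11, Atp6ap1 and Ctsb. With TYA-018 they were lost in 7 for Vps11 and 5 for Vps18 and Atp6v1a.

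Macrophages are rich in lysosomes, and their markers were also higher in HFpEF-Veh. All 5 macrophage markers (Cd68, Csf1r, Emr1, C1qa and Mrc1) were called higher in HFpEF-Veh, with a summed level of 59.1 to 76.6 CPM among controls, 84.4 to 107.5 CPM among HFpEF-Veh libraries and 68.0 to 73.9 CPM among treated ones, where 3 of the 5 were called lower (sums use the library totals, without TMM). In HFpEF-TYA-018 against HFpEF-Veh the median log2 fold change was -0.53 for the 5 markers and 0.016 for the 18 lysosomal proteins. In HFpEF-TYA-018 against Control-Veh these medians were 0.17 for the markers and 0.14 for the lysosomal proteins. There 0 of the 5 markers and 6 of the 18 lysosomal proteins were called, where 5.86% of all tested genes were. The part of macrophages in the lysosomal changes was not tested.

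Of the transcription factors and nutrient sensors, Foxo1, which drives autophagy and atrophy genes, rose in HFpEF-Veh by 0.39 ± 0.087 on the log2 scale (edgeR adjusted p = 0.00894), 1 of 5 other factors, and 0 of the 5 were called with TYA-018 (1 lower at an unadjusted p under 0.05 and 1 by DESeq2). Of 9 nutrient kinases and regulators tested, 0 were called in HFpEF-Veh by edgeR or DESeq2 (1 at an unadjusted p under 0.05), and Rptor, the scaffold of the kinase complex mTORC1 that restrains autophagy, rose with TYA-018 by 0.25 ± 0.059 (edgeR adjusted p = 0.0123). Foxo1 lost its call in 5 of 10 alternatives, among them the offset (0.30, edgeR adjusted p = 0.127) and each log2 TPM scale (as low as 0.035 there), and Rptor was at 0.28 on the offset (edgeR adjusted p = 0.0506).

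Hdac6 itself, the target of the compound, had 14.8, 14.4, 15.8 and 15.0 CPM in C1 to C4, 13.05, 10.8, 11.4 and 11.3 CPM in V1 to V4 and 15.5, 13.5, 14.8 and 12.1 CPM in T1 to T4. It was lower in HFpEF-Veh by 0.36 on the log2 scale (edgeR adjusted p = 0.0117) and higher with TYA-018 by 0.26 (edgeR adjusted p = 0.0486), and the latter call was lost in 10 of the 12 fits without 1 library (adjusted p 0.0163 to 0.146), all but those without V1 or T4. Apart from these fits, the fall of Hdac6 lost its call in 5 of 10 alternatives, among them the offset (-0.22, edgeR adjusted p = 0.481) and rescaled TPM (-0.15, limma adjusted p = 0.638), and the rise in 8 of 10, among them RLE scaling, the offset (0.15, edgeR adjusted p = 0.667) and rescaled TPM (0.11, limma adjusted p = 0.767). Inhibition of the enzyme is not a change of its transcript, so this is no check of the labels. The study reported more HDAC6 protein, by western blot, in hearts of HFD and L-NAME mice than in controls. That is another measure than the transcript level here. Of 4 genes of aggregate clearance including Hdac6, Vcp, the ATPase that unfolds ubiquitin-tagged proteins, rose with TYA-018 by 0.40 ± 0.089 on the log2 scale (edgeR adjusted p = 0.00988). Hspb8, a chaperone of the same route, was higher with TYA-018 by 0.24 on the log2 scale (edgeR adjusted p = 0.0253). That call was lost in 3 of the 12 fits without 1 library. With the length offset Hspb8 was at -0.62 on the log2 scale (edgeR adjusted p = 0.224).

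Of 7 muscle atrophy and fasting genes, Fbxo32 (atrogin-1), a ubiquitin ligase that rises in muscle wasting, went from a mean of 74.7 CPM in the controls to 49.7 CPM in the model and 79.6 CPM with TYA-018 (log2 -0.59 and 0.68, edgeR adjusted p = 0.00273 and 0.00189). Fkbp5, a gene induced by glucocorticoids, went the other way, from 68.5 to 124 and 68.2 CPM (log2 0.86 and -0.87, edgeR adjusted p = 0.00194 and 0.00257). Trim63, another such ligase, rose with TYA-018 (0.59, edgeR adjusted p = 0.00508), and Angptl4 fell by 0.71 on the log2 scale (edgeR adjusted p = 0.0381). The calls of Fbxo32 and Fkbp5 were kept on the length offset, and those of Trim63 (0.36, edgeR adjusted p = 0.362) and Angptl4 (-1.73, edgeR adjusted p = 0.0666) were not. Angptl4 also lost its call in 7 of the 12 fits without 1 library (edgeR adjusted p 0.0103 to 0.104). The part of these genes in the changes of the 10 genes was not tested.

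The genes whose pattern over the 12 libraries was most like the 2 genes called in both of the first comparisons were sought by the root mean square difference of log2 CPM, centred on each gene's mean. For Sqstm1 the nearest of all other tested genes was Atg7, at 0.068, followed by Thnsl1 at 0.082 and Zfp771 at 0.085. Gabarapl1 was at 0.099, and Bnip3 was farthest of the other 9 members, at 0.28. For Pink1 the nearest were Ifrd2 at 0.051, Taf1a at 0.055 and Psmc2, a proteasome subunit, at 0.056. These distances are descriptions over libraries that share groups and scaling.

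Other measures also differed between the groups. Estimated counts summed to 61.2 to 83.9 M per library, and mitochondrial genes took 37.0 to 40.6% of them among controls, 43.1 to 47.7% among HFpEF-Veh libraries and 35.4 to 41.2% among treated ones. Without mitochondrial and globin genes the same 4, 5 and 1 of the 10 genes were called in the 3 comparisons. The 6 red cell markers summed to 1559 to 2434 CPM among controls, 4254 to 13452 CPM in the vehicle-treated model and 2577 to 3450 CPM with TYA-018, and all 6 were called higher in the model and lower with TYA-018. In the same order of groups the 4 endothelial markers summed to 546 to 724, 635 to 836 and 549 to 657 CPM, and the 5 fibroblast markers to 356 to 588, 516 to 701 and 366 to 489 CPM. The 5 heart muscle markers, all present, summed to 18452 to 21784 CPM among controls, 15515 to 17144 CPM in the vehicle-treated model and 17243 to 22116 CPM with TYA-018, with Myh6, Tnnt2 and Tnni3 called lower and Actc1 higher in HFpEF-Veh. Fat cell markers summed to at most 1.91 CPM and atrial markers to at most 3.08 CPM in any library. The part of these shifts in the levels of Sqstm1, Pink1, Bnip3 and the other genes was not tested.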

How the data were processed

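Messenger RNA was sequenced from the left ventricle of 12 mice, 4 per group, grouped by the labels. The authors trimmed reads with fastp, quantified them with salmon (version 1.6.0 in the submitters' processing notes) against mouse GENCODE transcripts of GRCm38, with corrections for sequence, GC and position bias that enter the effective lengths, and summed them to genes with tximport; the notes name hg38 as build, and the mouse build of the methods was followed. The deposited tables hold estimated counts, TPM and other values, the effective lengths in bases. For Gabarapl1 and Ulk1 those lengths exceed the longest GENCODE M21 transcript, so the authors' gene models may differ from the annotation used here for positions.

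Estimated counts were rounded, filtered with filterByExpr (14333 of 29564 genes kept) and scaled by TMM. One edgeR 4.0.16 quasi-likelihood model (R 4.3.3) was fitted to the 12 libraries with 9 residual degrees of freedom, without covariates, and was checked on simulated counts. P-values were adjusted by Benjamini-Hochberg over all tested genes, two-sided. Standard errors are the absolute log2 fold change divided by the square root of F, and 95% intervals use the t distribution with 9 degrees of freedom. The intervals therefore need not match the p-values of the F test. For Ulk1 with TYA-018 the interval was -0.0016 to 0.29 at an unadjusted edgeR p of 0.0445. Alternatives were edgeR's RLE size factors, no filter, DESeq2 1.42.0, only the 2 groups compared, the length offset, limma 3.58.1 on log2(TPM + 1) or log2(TPM + 0.1), TPM rescaled to 13349 detected protein-coding nuclear genes as in the study's methods, no mitochondrial or globin genes, and each library left out. Fold changes on log2(TPM + pseudocount) understate changes of low genes.

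The 10 genes and the lists were chosen with earlier results of these data known. Named beside the 10 were Hdac6, up to 2 genes called higher and 2 called lower with the smallest p per list in the first 2 comparisons, and the 3 genes nearest in pattern; further called genes of a list were named after their values were seen. Older symbols were matched for 3 genes through RefSeq, among them Rubcn and Adgre1 (listed as Emr1). Some genes of the lists are counted but not reported singly here. Each library is 1 animal.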

Additional observations from a re-analysis of the deposited data

How the results depend on the processing

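No paired analysis was possible because the groups share no animal numbers. The number of the 10 genes called in HFpEF-Veh against Control-Veh (4) was also 4 with RLE scaling, DESeq2 and without mitochondrial and globin genes; it was 2 without the filter, 2 with only the 2 groups compared, 2 with the length offset, 2 on rescaled TPM, 1 on log2(TPM + 1) or log2(TPM + 0.1), and 0 on log2(TPM + 1) without the filter (limma, 2 at an unadjusted p under 0.05). Leaving out 1 library gave 2 to 4. In HFpEF-TYA-018 against HFpEF-Veh (5) the count was 1 with the length offset, 1 on rescaled TPM, 3 on log2(TPM + 1) without the filter, and 3 to 6 without 1 library, at 3 without V3, T1 or T2. In HFpEF-TYA-018 against Control-Veh (1) it was 5 with DESeq2 and 0 with RLE scaling, without the filter, with only the 2 groups compared, with the length offset, on rescaled TPM and on each log2 TPM scale (edgeR or limma, 3 to 6 at an unadjusted p under 0.05), and 0 to 2 without 1 library.

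The called numbers over all genes also moved. In the 3 comparisons they were 3033, 2767 and 840 of 14333, then 3755, 3408 and 1514 with DESeq2, 3039, 2735 and 822 with RLE scaling, 2573, 2929 and 568 with only the 2 groups compared, 1445, 1217 and 203 with the length offset, and 2544, 2205 and 588 of 20674 without the filter. They were 1058, 742 and 94 of 13349 on rescaled TPM, 172 in the first and 9 in the third on log2(TPM + 1), 301, 2618 and 11 on log2(TPM + 0.1), and 33, 1051 and 11 of 20679 on log2(TPM + 1) without the filter. Leaving out 1 library gave 1986 to 3992, 1485 to 3251 and 308 to 809. With TYA-018 against HFpEF-Veh 2228 genes were called higher and 68 lower on log2(TPM + 1), against 1280 and 1487 in the counts.

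Of the other pathway genes, the 24 called in HFpEF-Veh against Control-Veh became 10 with the length offset, 5 on rescaled TPM, 0 on each log2 TPM scale (limma, 11 to 14 at an unadjusted p under 0.05) and 12 to 33 without 1 library. The 22 called with TYA-018 became 6 with the offset, 4 on rescaled TPM, 10 on log2(TPM + 1) without the filter and 12 to 24 without 1 library. The 11 in HFpEF-TYA-018 against Control-Veh became 17 with DESeq2, 2 with the offset, 2 on rescaled TPM, 0 on each log2 TPM scale (limma, 22 to 25 at an unadjusted p under 0.05) and 3 to 11 without 1 library.

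Signs changed in HFpEF-Veh against Control-Veh, with the length offset and on rescaled TPM respectively, for Map1lc3a (0.094, 0.14), Map1lc3b (0.040, 0.087), Gabarapl1 (0.070, 0.12), Ulk1 (0.040, 0.067), Tfeb (0.15, 0.17) and Calcoco1 (0.054, 0.10). Fundc1 changed sign with the offset (-0.013), on log2(TPM + 1) (-0.15, with or without the filter) and on log2(TPM + 0.1) (-0.21), and Rab7 on the latter scales (-0.075 and -0.079). With the filter, the median of all genes was -0.069 and -0.17 on those scales. Without 1 library Map1lc3b ranged from -0.050 to 0.060 and Gabarapl1 from -0.068 to 0.0073. In HFpEF-TYA-018 against HFpEF-Veh Map1lc3b was -0.034 with the offset and -0.046 on rescaled TPM, and on log2(TPM + 1), with or without the filter, and log2(TPM + 0.1) Becn1 was 0.28 and 0.30, Bnip3 0.35 and 0.36, Fundc1 0.057 and 0.067 and Atp6v1a 0.069 and 0.14. Those scales moved the median of all genes by 0.17 and 0.34 in that comparison. Hspb8 was -0.62 with the offset, -0.51 on rescaled TPM, -0.056 on log2(TPM + 1) with or without the filter and -0.054 on log2(TPM + 0.1). In HFpEF-TYA-018 against Control-Veh Pink1 was -0.086 with the offset and -0.049 on rescaled TPM, and on log2(TPM + 1), with or without the filter, and log2(TPM + 0.1) Ambra1 was 0.023 and 0.021. Without 1 library Ulk1 ranged from -0.013 to 0.046 and Pink1 from -0.011 to 0.10 there. The cause of these changes was not tested.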
